A study of Mus musculus with 6 samples.

Results

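The genes described here are 41 mouse genes that encode or maintain the contractile myofibril: proteins of the thin filament, the thick filament and M-band, the Z-disc and the intercalated disc, ankyrin repeat proteins bound to titin, and the chaperones and ubiquitin ligases that build and turn over the sarcomere. They were taken by gene symbol, and all 41 were found among the 19079 genes of the deposited comparison and among the 15172 genes that could be tested. The samples were ventricles of C57BL/6 littermates at postnatal day (P) 10, profiled by bulk RNA sequencing. In the *Runx1* OE group (n = 4), mice carried Myh6-CreER together with a Rosa-*Runx1* overexpression allele; in the Myh6-CreER control group (n = 2), they carried Myh6-CreER alone. All 6 mice received tamoxifen at P0 and P1, so the controls share the tamoxifen-dependent Cre recombinase and its inducer with the *Runx1* OE mice. The *Myh6* promoter drives this Cre in cardiomyocytes, whereas the RNA came from whole tissue that also holds fibroblasts, endothelial cells and blood. The series design names whole ventricles and the extraction protocol left ventricles, and the labels state no sex for single mice.

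The sarcomere is the repeating unit of striated muscle. Actin thin filaments are anchored in the Z-disc and slide past myosin thick filaments, which are crosslinked at the M-band, and titin spans from the Z-disc to the M-band. Sarcomeres of the neonatal heart are still being enlarged and aligned, and chaperones and muscle-specific ubiquitin ligases fold, place and remove their proteins.

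Each gene was described by the mean normalized count of each group, which is the read count corrected for sequencing depth and averaged by the authors over the libraries of that group. The within-group spread came from the gap between these means and the geometric mean over all 6 libraries, and a gene was called when the Benjamini-Hochberg adjusted p over all tested genes was under 0.05. Values of single *Runx1* OE libraries were not used here, because the columns that hold them carry no name that the labels pair with a mouse. The deposited maximum over the 6 libraries nevertheless fixes more than the means. Where only a control can hold the maximum, both control values follow exactly, and each *Runx1* OE library is confined to a range. Groups are said below not to overlap when no set of 6 values with these means and this maximum allows a *Runx1* OE library to reach a control.

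*Runx1* itself averaged 16622 normalized counts in *Runx1* OE ventricles and 40.2 in Myh6-CreER controls (log2 ratio 8.69 ± 0.53 SE, n = 4 and 2, limma-moderated adjusted p = 0.00476), and the groups did not overlap. *Xist*, which is transcribed from the inactive X chromosome of females, averaged 4584 normalized counts in *Runx1* OE ventricles and 8.92 in controls. Neither control can exceed 17.8 for *Xist*, and the highest library, a *Runx1* OE one, reached 7493. Given these means, at least 3 of the 4 *Runx1* OE libraries held 1675 or more. *Xist* therefore differed largely along with the groups, and the part of sex in the results was not tested. All 41 genes lie on autosomes. The group means summed over the table to 19199157 normalized counts in *Runx1* OE ventricles and 19870568 in controls, and the total of each library was not analysed here.

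None of the 41 genes was called. The smallest adjusted p was 0.141, and at an unadjusted p under 0.05 there were 13 genes with lower and 2 with higher values in *Runx1* OE. Over all tested genes, 0.0923% were called lower and 0.435% called higher, and 5.84% and 6.6% passed the unadjusted limit downward and upward. The paper reports more genes at the same adjusted limit, from DESeq2 on these samples. A gene not called here may therefore still differ between the groups. A log2 ratio below 0 was found for 30 genes and one above 0 for 11, with a median of -0.32 against 0.01 over all tested genes. For 15 of the 41 (36.6%), all 4 *Runx1* OE libraries lay below both controls, compared with 7.96% of all tested genes. For 3 genes (7.32%) all *Runx1* OE libraries lay above both controls, a share near the 8.32% found over all tested genes. A log2 ratio below -0.5 was found for 5 genes and one above 0.5 for 1 gene, where 5.29% and 7.28% of all tested genes passed these limits. Summed over the 41 genes, the *Runx1* OE means came to 426514 and the control means to 500047 normalized counts (log2 ratio of the sums -0.23). In whole tissue, fewer cardiomyocytes and less RNA of a gene per cardiomyocyte cannot be told apart.

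**Figure D1:**
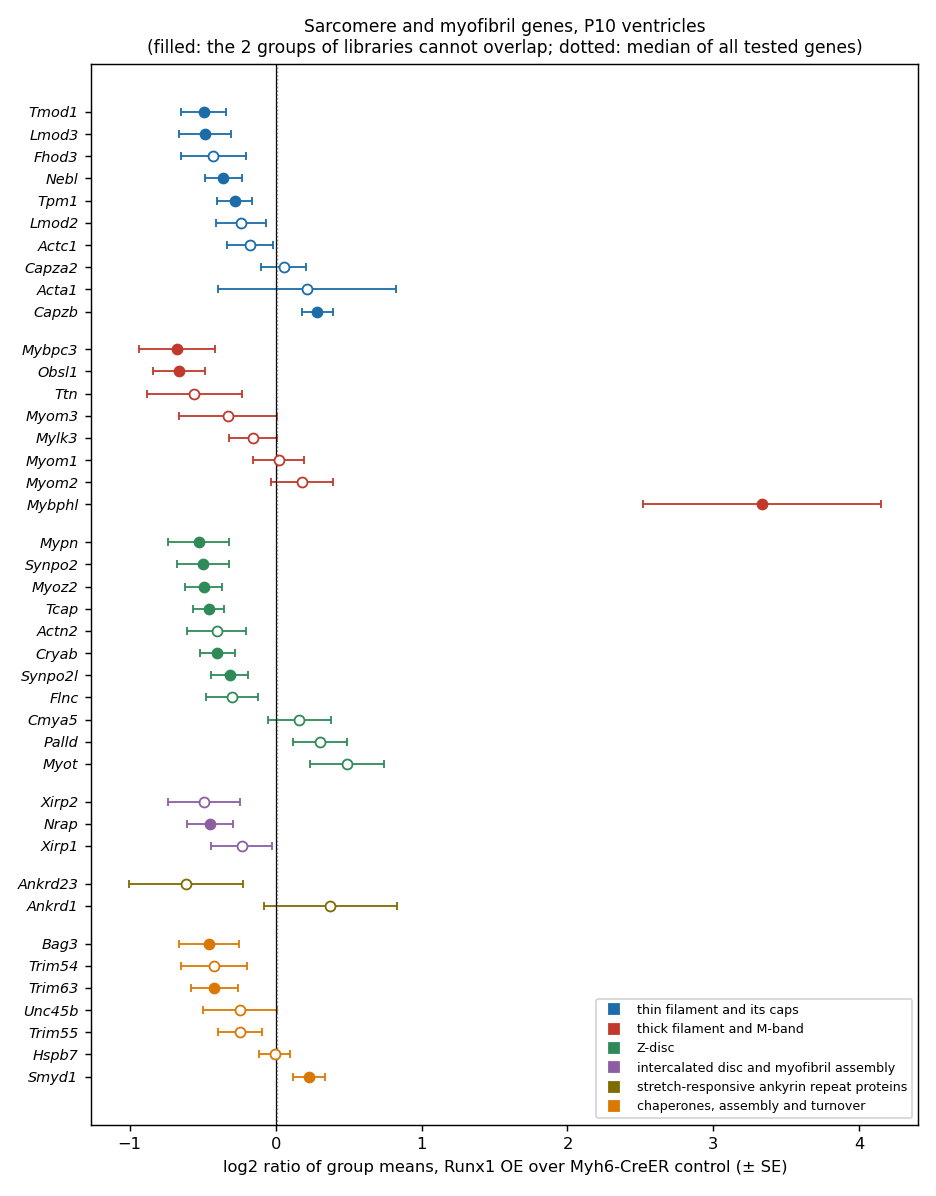
Log2 ratio of the group mean normalized counts (x axis), *Runx1* OE over Myh6-CreER control, for the 41 genes grouped by role (colours), with bars of 1 standard error (n = 4 and 2). Filled points mark the 18 genes whose groups do not overlap, 15 with lower and 3 with higher values in *Runx1* OE; the dotted line is the median of all tested genes, 0.01.

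The thick filament and M-band held the genes with the widest differences. *Mybpc3*, which encodes cardiac myosin-binding protein C, a regulator of crossbridge cycling, averaged 17398 normalized counts in *Runx1* OE ventricles, and each of these libraries lay between 10810 and 25343, against 28533 and 27080 in the 2 controls. The *Runx1* OE libraries of *Mybpc3* were therefore all below both controls, at a mean 62.6% of the control mean, but spread widely (SD 0.41 on the log2 scale), and the log2 ratio of -0.68 ± 0.26 SE did not pass the test (adjusted p = 0.361). *Obsl1*, whose product links titin and myomesin at the M-band, averaged 1207 in *Runx1* OE, with single libraries between 922 and 1525, against 2050 and 1768 in the controls. Its groups did not overlap either (log2 ratio -0.66 ± 0.18, adjusted p = 0.184). *Ttn*, encoding titin, averaged 19119 normalized counts in *Runx1* OE ventricles and 28102 in controls (log2 ratio -0.56 ± 0.32, adjusted p = 0.567). For *Ttn* a *Runx1* OE library could be as high as the controls, and the difference did not pass the test.

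The other thick filament and M-band genes lay on both sides of 0. *Mybphl*, encoding a myosin-binding protein of the H-like type found in atria and the conduction system, was nearly undetected in the controls, with 20.6 normalized counts in *Runx1* OE ventricles and 2.04 in controls. Its log2 ratio was 3.33 ± 0.81 (adjusted p = 0.156), and it was 1.34 with a pseudocount of 10, 2.43 against the highest and 6.21 against the lowest value a control can take. Neither control can exceed 3.81 and the highest *Runx1* OE library reached 42.0; no allowed set of values lets the groups overlap. The values of *Mybphl* rest on few counts per library. The myomesins, which crosslink thick filaments at the M-band, had log2 ratios of 0.02 for *Myom1*, 0.18 for *Myom2* and -0.32 for *Myom3*, and *Mylk3*, the cardiac myosin light chain kinase, had -0.15. Libraries of the 2 groups may overlap for each of these 4 genes.

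At the Z-disc, 8 of 11 genes had a log2 ratio below 0. For 6 of the 11 (54.5%) all *Runx1* OE libraries lay below both controls, against 7.96% of all tested genes. *Tcap* (telethonin, which caps the end of titin in the Z-disc) had the smallest adjusted p of the 41 genes. Its *Runx1* OE libraries averaged 3270 normalized counts, with an SD of 0.06 on the log2 scale, and lay between 3048 and 3500, against 4653 and 4335 in the controls (log2 ratio -0.46 ± 0.11, adjusted p = 0.141). *Myoz2* (calsarcin-1, which tethers calcineurin to alpha-actinin) averaged 5958 in *Runx1* OE, between 5171 and 6795, against 8753 and 7994 in the controls. *Mypn* (myopalladin, which joins nebulette to alpha-actinin) averaged 993 in *Runx1* OE, between 691 and 1343, against 1460 and 1402 in the controls (log2 ratio -0.53 ± 0.21, adjusted p = 0.379). In these 3 genes the highest value a *Runx1* OE library can take stayed below the lower control.

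The same separation held for the actin-binding proteins *Synpo2* (myopodin) and *Synpo2l* and for *Cryab*, a small heat shock protein that protects desmin and Z-disc proteins. *Synpo2* averaged 877 normalized counts in *Runx1* OE, between 660 and 1122, against 1250 and 1229 in the controls. *Synpo2l* averaged 4288 in *Runx1* OE, between 3682 and 4936, against 5493 and 5177 in the controls. *Cryab* averaged 8159 normalized counts in *Runx1* OE, between 7300 and 9062, against 11288 and 10232 in the controls. *Actn2*, the sarcomeric alpha-actinin that crosslinks actin in the Z-disc, averaged 19274 in *Runx1* OE ventricles and 25466 in controls. *Flnc*, a filamin that binds Z-disc proteins, averaged 1692 in *Runx1* OE ventricles and 2080 in controls. For *Actn2* and *Flnc* a single *Runx1* OE library may overlap the lower control. The 3 Z-disc genes with ratios above 0 were *Cmya5* (0.16), *Palld* (0.31) and *Myot* (0.49), which encode myospryn, palladin and myotilin. Palladin and myotilin belong with myopalladin to one family of immunoglobulin-domain proteins that bind alpha-actinin, and the ratios of *Palld* and *Myot* lay above 0 where that of *Mypn* lay below it; the difference between these genes was not tested. The groups may overlap for all 3, and *Myot* was low in both groups (78.8 normalized counts in *Runx1* OE ventricles and 56.0 in controls).

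**Figure D2:**
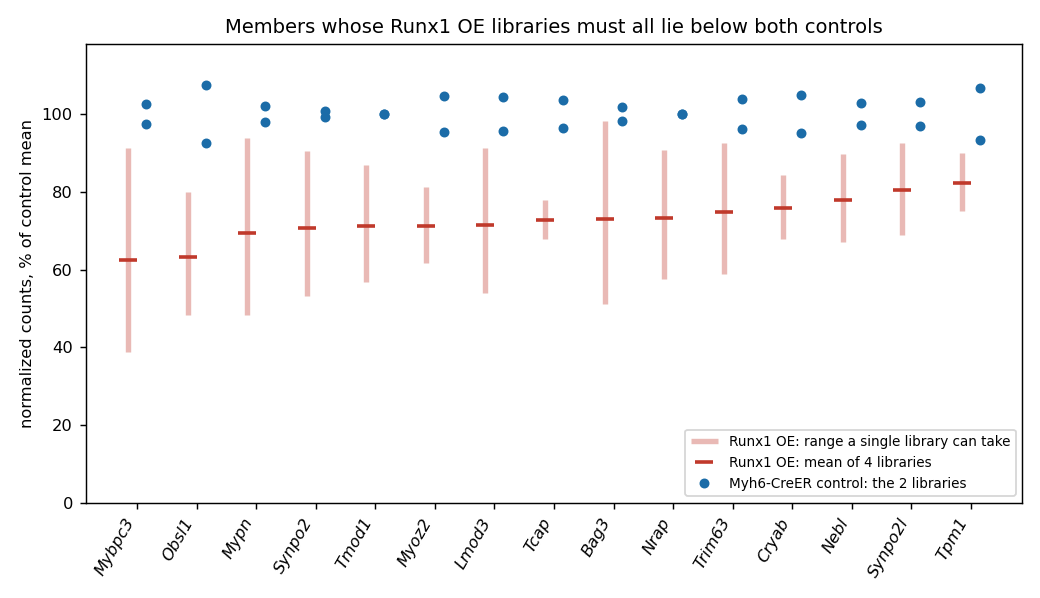
Normalized counts as a percentage of the control mean (y axis) for the 15 genes whose *Runx1* OE libraries all lie below both controls. Red dashes are the *Runx1* OE means (n = 4), pale bars the range a single *Runx1* OE library can take, and blue points the 2 Myh6-CreER controls; *Mybpc3* has the lowest mean (62.6%) and *Tpm1* the highest (82.4%).

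Of the 10 thin filament genes, 7 had ratios below 0. *Tmod1*, the tropomodulin that caps pointed ends, averaged 5975 normalized counts in *Runx1* OE, between 4772 and 7298, and the controls were nearly equal at 8409 and 8398. *Tpm1*, encoding alpha-tropomyosin, averaged 75442 in *Runx1* OE, between 68674 and 82492, against 97760 and 85417 in the controls. The groups of *Tmod1* and *Tpm1* did not overlap, nor did those of *Lmod3*, a leiomodin that nucleates actin filaments, and *Nebl*, encoding nebulette. *Lmod3* averaged 978 in *Runx1* OE, between 737 and 1248, against 1427 and 1307 in the controls. *Nebl* averaged 5345 in *Runx1* OE, between 4593 and 6146, against 7048 and 6667 in the controls. The related leiomodin *Lmod2* had a ratio of -0.24 and the formin *Fhod3*, needed for thin filament assembly in the heart, -0.43, and for both the groups may overlap. *Actc1*, the cardiac alpha-actin, averaged 141022 normalized counts in *Runx1* OE ventricles and 159038 in controls (log2 ratio -0.17 ± 0.16). *Acta1*, the skeletal alpha-actin that the immature heart also uses, averaged 233 in *Runx1* OE ventricles and 201 in controls and had the largest error of the thin filament genes (0.21 ± 0.61). Both are alpha-actins, and how reads were split between *Actc1* and *Acta1* was not tested.

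The subunits of the barbed-end cap had ratios above 0. *Capzb*, the beta subunit of the capping protein CapZ in the Z-disc, averaged 4590 normalized counts in *Runx1* OE ventricles and 3763 in controls (log2 ratio 0.29 ± 0.11, adjusted p = 0.348). Its *Runx1* OE libraries lay between 4209 and 4919 and neither control can exceed 4023, so the groups did not overlap. *Capza2*, an alpha subunit, averaged 2091 in *Runx1* OE ventricles and 2012 in controls, a log2 ratio of 0.06 within its SE of 0.15.

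The 3 genes of the intercalated disc and of myofibril assembly all had ratios below 0. *Nrap*, whose product organizes actin and alpha-actinin in early myofibrils, averaged 3425 normalized counts in *Runx1* OE, between 2689 and 4239, against 4681 and 4670 in the controls, and did not overlap. The actin-binding Xin repeat genes *Xirp1* and *Xirp2* had log2 ratios of -0.23 and -0.49 and may overlap. The ankyrin repeat proteins, which bind the spring region of titin and respond to stretch, were the most variable role. *Ankrd23* averaged 1121 normalized counts in *Runx1* OE ventricles and 1716 in controls (log2 ratio -0.61 ± 0.39, adjusted p = 0.608), whereas *Ankrd1* averaged 5858 in *Runx1* OE ventricles and 4515 in controls (0.38 ± 0.46). Neither difference passed the test, the groups may overlap for both, and the ratio of *Ankrd1* was -0.29 against the highest value a control can take.

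Among the 7 genes for chaperones, assembly and turnover, the summed level was nearly equal, with 48322 normalized counts in *Runx1* OE ventricles and 49142 in controls. *Hspb7*, a cardiac small heat shock protein and the most abundant of them, made up most of this sum, with means of 29300 in *Runx1* OE ventricles and 29412 in controls (log2 ratio -0.01 ± 0.11). The co-chaperone *Bag3*, which directs damaged filamin to autophagy, averaged 2503 in *Runx1* OE, between 1755 and 3367, against 3492 and 3369 in the controls, so its groups were only just apart and may overlap with a margin for rounding 10 times as large. *Trim63* (MuRF1), a ubiquitin ligase that targets thick filament proteins, averaged 1839 in *Runx1* OE, between 1446 and 2274, against 2555 and 2366 in the controls. Its relatives *Trim55* and *Trim54* had log2 ratios of -0.24 and -0.42 and may overlap, as may the myosin chaperone *Unc45b* (-0.25). *Smyd1*, a muscle methyltransferase that works with *Unc45b* in myosin assembly, lay the other way, with 10727 normalized counts in *Runx1* OE ventricles and 9142 in controls (log2 ratio 0.23 ± 0.11, adjusted p = 0.461) and no overlap.

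The SD of each group is known only for genes whose maximum must be a control, so these genes are selected by their control values. This held for 18 of the 41 genes. The SD of the *Runx1* OE libraries was above that of the controls in 16 of them, with medians of 0.23 in *Runx1* OE and 0.07 in controls on the log2 scale; *Tcap* and *Tpm1* were the exceptions. Over all tested genes with both SDs known, the *Runx1* OE SD was the larger in 1733 of 2601, with medians of 0.16 in *Runx1* OE and 0.11 in controls. A control SD rests on 2 libraries and a *Runx1* OE SD on 4. Whether the spread differs between the groups was not tested.

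**Figure D3:**
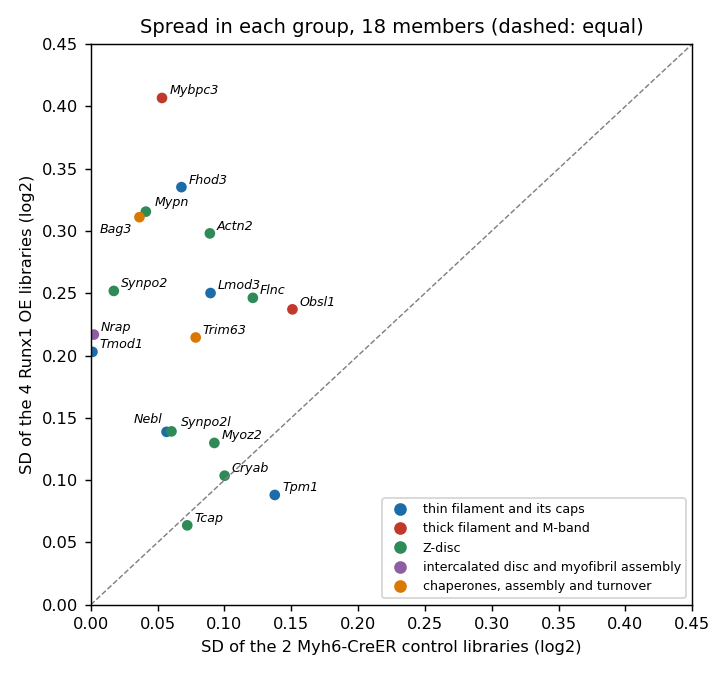
SD of the 4 *Runx1* OE libraries (y axis) against SD of the 2 Myh6-CreER control libraries (x axis), both on the log2 scale, for the 18 genes where both are known; colours give the role and the dashed line equal SDs. Above the line lie 16 genes, *Mybpc3* highest (0.41), and *Tcap* and *Tpm1* lie below it.

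Per kilobase of exon, the level of the 41 genes spanned several orders of magnitude. *Actc1* was highest, with 24350 normalized counts per kilobase in *Runx1* OE ventricles and 27460 in controls, followed by *Tpm1* with 9340 in *Runx1* OE and 11340 in controls and *Hspb7* with 8284 in *Runx1* OE and 8315 in controls. *Mybpc3* had 4179 per kilobase in *Runx1* OE and 6679 in controls, and *Tcap* 3450 in *Runx1* OE and 4740 in controls. *Ttn*, spread over 117522 exon bases, had only 163 per kilobase in *Runx1* OE and 239 in controls. *Mybphl*, *Myom3*, *Myot* and *Trim54* were lowest in level, at no more than 17.7 per kilobase in *Runx1* OE and 23.7 in controls.

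On GRCm39, the deposited coordinates place *Mybpc3* at chr2:90948489-90966861 on the plus strand, *Ttn* at chr2:76534324-76812891, *Obsl1* at chr1:75455954-75483096, *Ankrd23* at chr1:36569269-36575964 and *Mypn* at chr10:62951574-63039731 on the minus strand, and *Mybphl* at chr3:108272227-108287373 on the plus strand. Exons of 27 of the 41 genes overlap an exon of a gene on the opposite strand in the annotation, and the sources used here do not state whether counting used the strand. Among the 15 genes with lower, non-overlapping values, *Mybpc3*, *Myoz2*, *Synpo2* and *Trim63* have no such overlap.

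Promoter sequences are shown for 4 of the 6 genes with the widest differences, chosen after their values were seen, to place the muscle motifs found in them. RefSeq promoters (GRCm38.p6) were matched for 33 of the 41 genes, 42 promoters in all, and 250 bases before each start were searched on both strands. The 180 bases before the start follow, 5′ to 3′ on the gene's strand, with capitals marking a match to the MEF2 motif in *Mybpc3* and *Ttn* and to the M-CAT motif (CATTCC, read on the other strand) in *Mypn*; *Mybphl* had no match to any motif searched.
Mybpc3, chr2:91117964-91118143, plus strand: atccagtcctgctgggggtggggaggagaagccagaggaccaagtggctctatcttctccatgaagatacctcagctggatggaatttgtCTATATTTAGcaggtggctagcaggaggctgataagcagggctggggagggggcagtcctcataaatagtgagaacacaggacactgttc
Ttn, chr2:76982548-76982727, minus strand: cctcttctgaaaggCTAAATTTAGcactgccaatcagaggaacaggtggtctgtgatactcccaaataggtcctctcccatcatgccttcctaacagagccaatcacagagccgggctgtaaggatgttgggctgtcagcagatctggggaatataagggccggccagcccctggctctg
Mypn, chr10:63203953-63204132, minus strand: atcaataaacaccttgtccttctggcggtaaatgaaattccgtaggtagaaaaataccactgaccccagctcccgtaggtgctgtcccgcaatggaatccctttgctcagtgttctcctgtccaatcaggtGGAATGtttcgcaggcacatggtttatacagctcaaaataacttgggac
Mybphl, chr3:108364731-108364910, plus strand: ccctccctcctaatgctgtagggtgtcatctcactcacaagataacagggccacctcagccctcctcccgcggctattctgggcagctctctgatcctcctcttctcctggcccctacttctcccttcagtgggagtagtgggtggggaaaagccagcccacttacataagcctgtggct

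The MEF2 match began 90 bases before the start in *Mybpc3* and 166 bases before it in *Ttn*, and the M-CAT match 49 bases before it in *Mypn*. Of the widest genes not shown, *Obsl1* had no match to any motif searched. *Ankrd23* had a promoter with an M-CAT match, 120 bases before the start, and another without a match. A MEF2 match was present in 8 of the 42 promoters (19%) and in 2.92% of all 32851 promoters in the table. An M-CAT match was present in 12 (28.6%) and in 12.6% of all promoters, and a CArG box in 4 (9.52%) and in 1.47% of all. The RUNX motif, searched as TGTGGT or TGCGGT, was found in 10 (23.8%) and in 18.6% of all promoters. Some genes have several, partly overlapping promoters, and a match is only an occurrence of these letters.

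A list of other sarcomere and myofibril genes held 62 tested genes, and none was called. Ratios below 0 were found for 40 of them, with a list median of -0.11. The groups did not overlap for 16 (25.8%) with lower and 4 (6.45%) with higher values in *Runx1* OE. Over all tested genes these shares were 7.96% lower and 8.32% higher. The group means of the list summed to 485381 normalized counts in *Runx1* OE ventricles and 580259 in controls.

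Marker genes of the cell types in the tissue were compared in the same way. Of 11 cardiomyocyte markers, which include some genes of the sarcomere, 10 had ratios below 0. For 6 of the 11 (54.5%) the groups did not overlap, all lower in *Runx1* OE, against 7.96% lower over all tested genes. The 11 markers summed to 428931 normalized counts in *Runx1* OE ventricles and 632348 in controls (log2 ratio -0.56). Their single log2 ratios were uneven and ran between -0.82 for *Pln* and 0.03 for *Tnni3*. Ventricular markers summed to 152983 in *Runx1* OE ventricles and 149068 in controls, with 1 of 4 below 0. Fibroblast markers summed to 58653 in *Runx1* OE and 58691 in controls, endothelial markers to 19500 in *Runx1* OE and 21112 in controls, and macrophage and leukocyte markers to 2346 in *Runx1* OE and 2280 in controls. Smooth muscle and pericyte markers summed to 23450 in *Runx1* OE ventricles and 28957 in controls. Of these 8 genes, 6 had ratios below 0, and the ratios ran between -0.82 for *Abcc9* and 0.57 for *Tagln*. Erythroid markers summed to 98992 in *Runx1* OE and 89933 in controls. Of the skeletal muscle markers only *Ckm*, which the heart also expresses, was above the minimum. The part of cell composition in the lower values of the sarcomere genes was not tested.

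**Figure D4:**
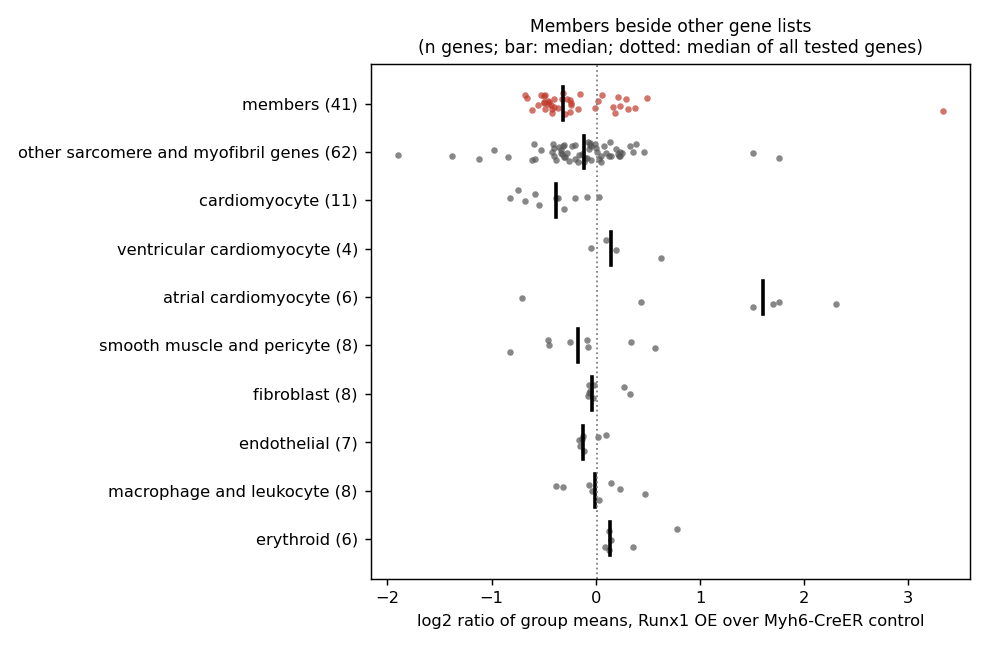
Log2 ratio of group means (x axis), *Runx1* OE over Myh6-CreER control, for each gene of 10 lists (y axis, number of tested genes in brackets), with a bar at each list's median and a dotted line at the median of all tested genes. The median of the 41 genes is -0.32, that of the 11 cardiomyocyte markers -0.38 and that of the 4 ventricular cardiomyocyte markers 0.15. The fibroblast median lies at -0.04.

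Atrial markers bear on *Mybphl*. Of the 6 tested, 5 had ratios above 0, and none was at 0 in the group means. The 6 summed to 2653 normalized counts in *Runx1* OE ventricles and 1467 in controls. *Sln*, also on this list, was left out of the test and averaged 22.19 in *Runx1* OE ventricles and 2.535 in controls. Most of the difference between the summed levels lay in *Nppa*, which averaged 1420 in *Runx1* OE ventricles and 288 in controls without overlap. *Myl7*, an atrial light chain, averaged 73.3 in *Runx1* OE and 21.7 in controls, and *Myl4*, another, 253 in *Runx1* OE and 88.9 in controls, both with possible overlap. *Tbx5* lay the other way, with 450 in *Runx1* OE and 737 in controls. The part of atrial tissue in the values of *Mybphl* was not tested.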

How the data were processed

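RNA from ventricles of 6 mice was sequenced in bulk. Per the study's methods, the authors prepared poly(A)-primed libraries, aligned paired reads with STAR to mm39, quantified Ensembl transcripts in Partek, normalized by median ratio and compared the groups with DESeq2; HISAT2 and mm9 are listed in the processing notes of the submitters, whereas the deposited coordinates overlap each of the 41 genes on GRCm39. The deposited values used were the authors' normalized signal, as the mean of each group and over all samples, and the geometric mean, maximum and total over the 6 samples. The authors' fold changes, confidence limits, p-values and adjusted p-values were not used, nor were 6 columns of single libraries, whose names match no sample, so depth and raw counts per library were not analysed here.

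The pooled within-group variance on the log scale was derived from 4 times the log *Runx1* OE mean plus 2 times the log control mean minus 6 times the log geometric mean, which takes the spread as equal in both groups, moderated over all genes with squeezeVar in limma 3.58.1 (R 4.3.3; prior df 2.48 added to 4 residual df), and tested two-sided with Benjamini-Hochberg adjustment. Genes needed a mean of at least 10 normalized counts (15181); 9 were left out because a library was at 0, leaving 15172, and 4 with a derived variance below 0 were set to 0. The total computed from the 2 group means differed from the deposited total by 0.0357% (median) and at most 0.755%, and this error was allowed for where groups are said not to overlap. The derivation was tested on data simulated with the same spread in both groups, so unequal spread was not covered. No pseudocount was added.

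The 41 genes and all lists were chosen with earlier results of these data known. All 41 are named; called genes and the 6 others with the widest log2 ratio were to have means, log2 ratio, SE and adjusted p, and further genes with these values were chosen after their values were seen. Sequences were planned for called genes only. Nothing in the labels says that mice of a group came from different litters or were handled separately, so p-values measure the spread between these samples. Exon lengths and overlaps came from GENCODE M39. Alternatives are given in the closing section.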

Additional observations from a re-analysis of the deposited data

How the results depend on the processing

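None of the 41 genes was called under any of 11 alternative fits, whose smallest adjusted p over these genes ran between 0.0642, with a prior that follows expression, and 0.9996, with all spread placed in the 2 controls. Over all tested genes, 14 were called lower and 66 higher in *Runx1* OE. A minimum mean of 1 gave 4 lower and 33 higher, and a minimum of 50 gave 48 lower (64.7% of calls higher, against 82.5%). A prior that follows expression gave 87 and 154 (63.9% higher), no moderation 6 and 9 (60% higher), and all spread in the controls 0 and 2 (100% higher). A pseudocount of 1 gave 5 lower, a pseudocount of 10 gave 2 and 20, and leaving out chromosomes X and Y 23 lower. The 5 genes below -0.5 became 9 when ratios were centred on the median gene, 23 at a limit of 0.25 and 0 at a limit of 1. The 1 gene above 0.5 became 0 with a minimum mean of 50, which removes *Mybphl*, 2 with equal totals, 2 with equal upper quartiles, and 5 at a limit of 0.25. Among the fits, only *Hspb7* changed sign, to 0.0441 with equal totals and 0.0195 with equal upper quartiles; the cause of the other changes was not tested.

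With a margin for rounding 10 times as large, chosen after seeing the data, 14 genes in place of 15 had lower, non-overlapping values, without *Bag3*, and the 3 with higher values kept that state. Without the highest *Runx1* OE library the median log2 ratio was at least -0.43, without the lowest (added after seeing the data) at most -0.24, against the higher control the least allowed was -0.40 and against the lower control the highest allowed -0.24. The 15 genes with lower, non-overlapping values stayed below 0 in each of these. Against the higher control allowed, 36 genes lay below 0 and 5 above: *Acta1* (-0.58), *Ankrd1* (-0.29), *Myom1* (-0.22), *Cmya5* (-0.19), *Capza2* (-0.18) and *Myom2* (-0.16) changed sign, *Capzb* and *Smyd1* were at 0.19 and 0.13, and *Palld* and *Myot* at 0.01 and 0.07. Without the highest *Runx1* OE library, *Acta1* (-0.41), *Myom1* (-0.06) and *Capza2* (-0.05) could fall below 0, and *Hspb7* could lie above 0 in the other comparisons (0.05 against the lower control, 0.03 without the lowest *Runx1* OE library). *Mybphl* ran between 1.34, with a pseudocount of 10, and 6.21, against the lower control. No paired analysis was possible because the columns of single libraries carry no replicate number of the labels; leaving out each replicate in turn was not run for the same reason.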

Other observations

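Among the other sarcomere and myofibril genes, the following were chosen after their values were seen, and none passed the test. *Klhl40*, which stabilizes leiomodin and nebulin in skeletal muscle, averaged 36.5 normalized counts in *Runx1* OE ventricles, with libraries between 16.2 and 63.9, against 155 and 117 in Myh6-CreER controls (log2 ratio -1.90 ± 0.40 SE, limma-moderated adjusted p = 0.115). *Klhl41*, a relative that also supports myofibrils, averaged 511 in *Runx1* OE, between 298 and 773, against 1014 and 989 in controls. *Fhl2*, a LIM protein that binds titin, averaged 8816 in *Runx1* OE, between 6179 and 11862, against 19581 and 18729 in controls (log2 ratio -1.12 ± 0.21, adjusted p = 0.0895). *Ldb3* (Cypher), a Z-disc partner of alpha-actinin, averaged 10104 in *Runx1* OE, between 8189 and 12195, against 15537 and 15328 in controls. In these 4 genes every *Runx1* OE library lay below both controls. *Actn1*, a non-muscle alpha-actinin, lay the other way, with means of 1011 in *Runx1* OE and 790 in control ventricles and no overlap. *Actn4*, another non-muscle alpha-actinin, averaged 2823 in *Runx1* OE and 3150 in control ventricles, with possible overlap.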
